A study of Saccharomyces cerevisiae BY4741 with 4 samples.

Results

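Convergent neighbouring genes are transcribed towards each other, so that their 3′ ends meet while their promoters lie at opposite ends of the pair. The pairs were read from the systematic names of budding yeast genes, in which a number counts outwards from the centromere along a chromosome arm and a final W or C names the strand. On right arms a pair was a W gene with number n and a C gene with the next number, and on left arms a C gene with number n and a W gene with the next. Names with a suffix were not used. Of the 3906 neighbouring pairs of this kind with levels in both strains outside the left arm of chromosome IV, 1054 (27.0%) were convergent, against 985 divergent and 1867 tandem pairs. With that arm there were 4080 neighbouring pairs in all. The 1054 pairs hold 2108 different genes, 43.7% of the 4826 genes with both levels outside that arm.

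The deletion strain carried spp1D::KanMX6, the replacement of SPP1 by a drug resistance cassette, in the BY4741 background. It was set against BY4741 itself, a MATa strain with the alleles his3{delta}1, leu2{delta}0 and ura3{delta}0. Cultures grew in YPD, a rich medium with glucose, until the optical density was 0.6, and received fission yeast cells (25% by volume) as a spike-in. Trimethylation of histone H3 on lysine 4 (H3K4me3) was measured by chromatin immunoprecipitation of nucleosomes and sequencing, with 1 H3K4me3 library per strain. Every difference below therefore compares 2 libraries, has no replicate check and no p-value, and quartiles describe the spread over genes. The other libraries of the series, a second spp1 library whose assay is not named and a wild-type input, were not analysed here.

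H3K4me3 is placed by COMPASS, the complex of the Set1 methyltransferase, which travels with RNA polymerase II early in transcription. The mark is therefore found over the 5′ part of transcribed genes and falls away towards their 3′ ends. Spp1 is a PHD finger subunit of COMPASS that is needed for full trimethylation. A convergent pair places its marked 5′ ends as far apart as neighbours can have them, whereas a divergent pair places them on either side of a shared upstream region.

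As a check of the strain labels, SPP1 had a level of 0.0982 in the deletion library and 1.89 in the wild-type library, 5.21% of wild type, and it belongs to no convergent pair. Parts of the table stand apart. The 180 genes of chromosome IX had no level in the deletion strain and form no pair, and the left arm of chromosome IV, with 48 further convergent pairs, was left out because its log2 ratios of deletion to wild type scatter more widely (SD over 212 genes 1.06, against 0.52 over the genes elsewhere). The pairs lie on 28 chromosome arms, with 6 to 107 pairs an arm. Both members were annotated in 1030 pairs, and in all 1030 the W gene lay to the left of the C gene on the map, as the naming rule requires. In 970 of them no annotated gene of any kind lay between the members, and in 60 pairs at least 1 did.

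The genes of convergent pairs kept about as much H3K4me3 without Spp1 as genes in general. Their median level was 0.512 in the deletion strain (quartiles 0.358 and 0.713) and 2.05 in wild type (1.76 and 2.27), in the authors' normalised unit. The median log2 ratio was -1.94, which is 26.1% of wild type, with quartiles at 20.8% and 33.9%. Over all 4826 genes the median was 26.2%, so the members' median differed from theirs by -0.0041 on the log2 scale. Below 25% of wild type lay 957 members (45.4%), against 44.9% of all genes, and below 50% lay 2002 members (94.97%), against 94.6%. At or above 50% were 106 members (5.03%), against 5.41% of all genes. These shares are near those of all genes. Members ranged from MET3, which encodes ATP sulfurylase of sulfate assimilation, at 9.99% of wild type to RPL17A, a large-subunit ribosomal protein gene, at 80.0%, and no member lay above wild type.

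Neither place within the pair went with a different level. Median ratios were -1.94 on the log2 scale in W members and -1.93 in C members, and the ratio was higher in the W member in 512 pairs and in the C member in 542. Members nearer the centromere and members farther from it both had a median of 26.1%. Across 16 arms with at least 30 pairs, the members' median ran from 23.8% to 29.1%.

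The pairs address whether genes that meet at their 3′ ends carry like amounts of the mark and lose like amounts of it. Members of a pair were barely more alike than genes of different pairs. Over the 1054 pairs, the Spearman correlation between W and C members was 0.10 for the level in the deletion strain, 0.067 for the level in wild type and 0.029 for the log2 ratio. All points come from the same 2 libraries and genes are not independent, so these values are descriptions. The correlation of ratios lay between -0.22 and 0.24 over the 16 larger arms, above 0 on 10 and below 0 on 6. For comparison, every W member was set against every C member, which gives 1110916 pairings and a correlation of 0 by construction. Members of a true pair differed in log2 ratio by a median of 0.47, that is 1.38-fold, and members of all pairings by 0.48, or 1.40-fold. Differences above 1 on the log2 scale were found in 175 pairs (16.6%) and in 16.6% of all pairings. The levels themselves differed within a pair by a median of 1.61-fold in the deletion strain and 1.2005-fold in wild type, against 1.63-fold in the deletion strain and 1.21-fold in wild type over all pairings.

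**Figure D1:**
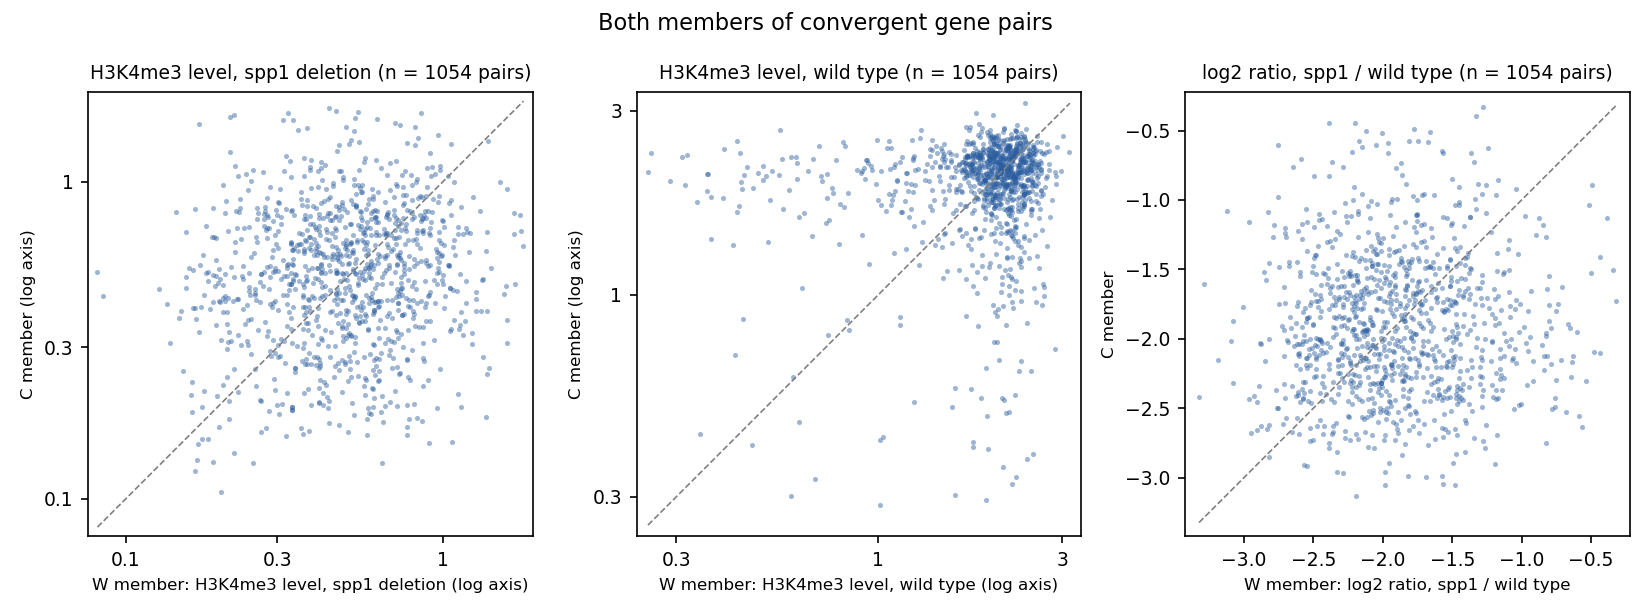
Each point is a convergent pair, with the W member on the x axis and the C member on the y axis, for the level in the spp1 deletion strain (left, log axes), the level in wild type (middle, log axes) and the log2 ratio of deletion to wild type (right). The dashed line marks equal values, and the clouds show little slope, with Spearman correlations of 0.10, 0.067 and 0.029 over 1054 pairs.

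Counting pairs by how much both members kept gave the same picture. In 223 pairs (21.2%) both members lay below 25% of wild type, in 511 (48.5%) 1 of them did and in 320 (30.4%) neither did. Over all pairings the shares were 20.6%, 49.6% and 29.8%. Both members kept 50% or more in a single pair, 0.0949% of the pairs against 0.253% of all pairings. It joins RPS2, a small-subunit ribosomal protein gene, at 71.2% with NAB2, which encodes a nuclear poly(A)-binding protein, at 53.8%.

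Which member was the better marked one was mostly shared by the strains. The same member had the higher level in the deletion strain and in wild type in 799 of 1054 pairs (75.8%). That share was 65.9% of the 666 pairs whose wild-type levels lay within 1.3-fold, 89.2% of the 251 pairs from 1.3-fold to 2-fold apart, and 136 of the 137 pairs (99.3%) that were 2-fold or more apart. Across pairs the Spearman correlation between the log2 difference in level in the deletion strain and that in wild type was 0.73. Across members taken singly, the levels in both strains had a Spearman correlation of 0.74. These shares were not computed for other pairings of genes, so they are not shown to be particular to convergent pairs.

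Set beside neighbours of other orientation, convergent pairs had the lowest Spearman correlations. For the log2 ratio it was 0.029 in convergent, 0.11 in divergent and 0.087 in tandem pairs. For the level in the deletion strain the values were 0.10, 0.23 and 0.14 in the same order, and for the level in wild type 0.067, 0.25 and 0.10. Median ratios were alike, at -1.94 on the log2 scale in convergent, -1.91 in divergent and -1.94 in tandem pairs. Genes of an arm that are 2 to 10 numbers apart, in any orientation, had correlations of the log2 ratio between -0.013 and 0.042, a range that contains the convergent value. For the level in the deletion strain that range was 0.024 to 0.077 and for the level in wild type 0.0083 to 0.078. No test of the differences between orientations was made, and the orientations were not matched for distance. The median gap between the coding sequences was 224.5 bases in convergent, 518 in divergent and 396.5 in tandem pairs.

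**Figure D2:**
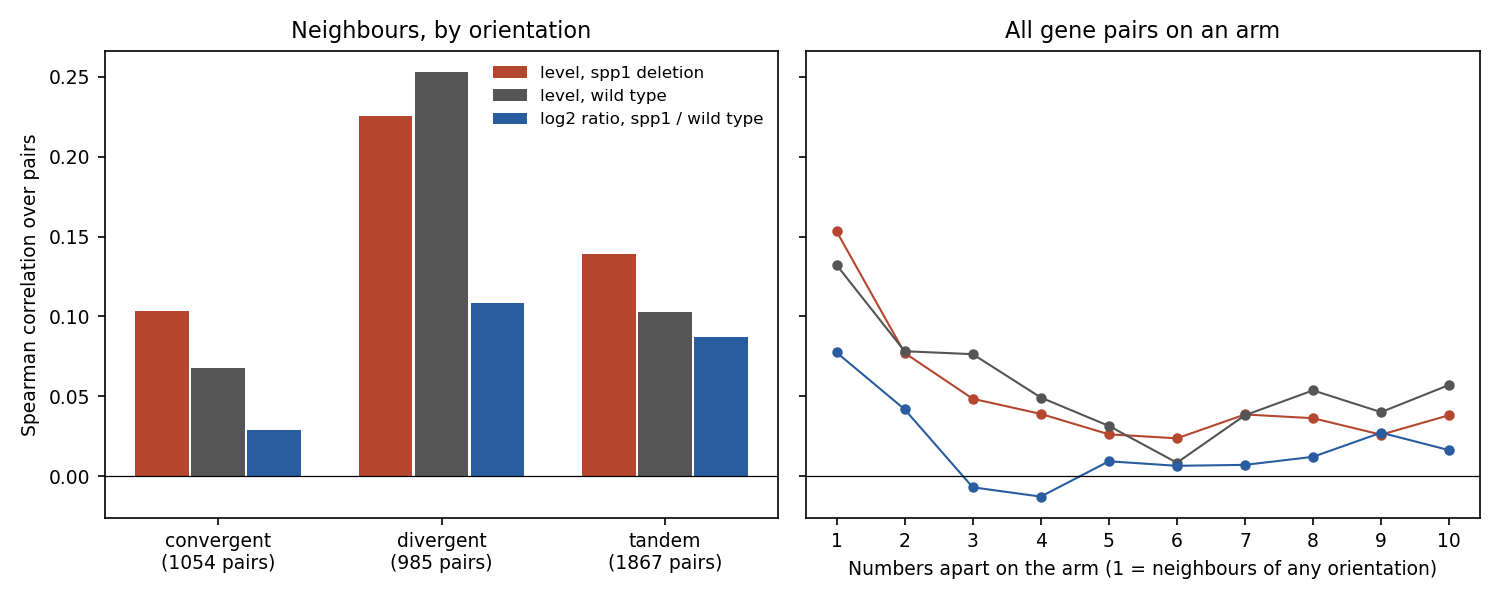
Spearman correlation over gene pairs, by orientation of neighbours (left, bars from 0) and by how many numbers apart genes lie on an arm (right), for the level in the spp1 deletion strain, the level in wild type and the log2 ratio. For each of the measures the bar of the 1054 convergent pairs is the lowest of its kind, and the lines on the right fall from neighbours to genes 5 numbers apart in both levels.

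Some neighbours in the table carry exactly the same values, which would raise a correlation. In 28 tandem pairs both levels were identical between the members, and this was the case in 0 convergent and 0 divergent pairs. Without the 28 pairs the tandem correlation was 0.071 for the log2 ratio, 0.13 for the level in the deletion strain and 0.093 for the level in wild type. Each still lay above the convergent value. Of the convergent members, 13 had both levels identical to those of some gene that was not their partner. The sources used here do not say which stretch of a gene the authors averaged.

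The pairs that kept most of the mark each joined a small-subunit ribosomal protein gene to an unlike partner. This comparison used the 321 convergent pairs in which both members had at least the median wild-type level of all genes, 2.01. At the top, RPS1B (chromosome XIII, 146482 to 147249) had levels of 1.59 in the deletion strain and 2.07 in wild type, and its partner MFT1 (147505 to 148683), which encodes a subunit of the THO complex in messenger RNA export, had 0.945 and 2.07. With like wild-type levels, they lay at 76.7% and 45.6% of wild type. RPS23A (chromosome VII, 726974 to 727730) lay at 70.1%, and the nuclear pore gene NUP57 (728046 to 729671) at 48.7%. RPS25A (chromosome VII, 534132 to 534458) lay at 79.7% beside YGR026W at 41.2%. RPS27A (chromosome XI, 158613 to 159212) lay at 78.9% beside RSM22 (159456 to 161342), a gene of the mitochondrial ribosome, at 35.3%.

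The pairs that kept least held no ribosomal protein gene. YHC3 (chromosome X, 324964 to 326190), a vacuolar membrane protein gene, had levels of 0.256 in the deletion strain and 2.17 in wild type, and BIT61 (326242 to 327873), which encodes a TORC2 subunit, had 0.423 and 2.11. These are 11.8% and 20.0% of wild type. The reductase gene YPR1 (chromosome IV, 1213904 to 1214842) lay at 13.2% and XRS2 (1215016 to 1217580), of the DNA break repair complex MRX, at 18.8%. KEG1 (chromosome VI, 238458 to 239060), an endoplasmic reticulum gene of cell wall glucan synthesis, lay at 15.4%, and IRC6 (239114 to 239827) at 16.8%. Among all 1054 pairs, with no floor on the level, the lowest were MET3 (9.99%) with CAL4 (18.7%), the siderophore transporter gene SIT1 (14.2%) with the vacuolar amino acid transporter gene AVT2 (13.9%), and the kinetochore gene NKP2 (13.0%) with the transfer RNA deaminase gene TAD3 (15.7%). These 3 pairs were picked out after their values were seen.

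The 4 widest contrasts in ratio were taken from the same 321 well-marked pairs. The partners' wild-type levels lay within 1.26-fold of each other, but the floor on both members by itself keeps such levels close. RPS24A (chromosome V, 306323 to 307196) had levels of 1.59 in the deletion strain and 2.34 in wild type, and the tyrosine phosphatase gene PTP3 (308413 to 311199) had 0.365 and 2.27. They lay at 67.7% and 16.1% of wild type, a 4.21-fold contrast between genes whose wild-type levels differed 1.03-fold. RPS28B (chromosome XII, 673131 to 673334) lay at 56.6% and NEJ1 (674427 to 675455), of DNA end joining, at 14.9%. In both of these pairs another annotated gene lies between the members. The glutathione reductase gene GLR1 (chromosome XVI, 375502 to 376953) lay at 15.97% and RPS6A (377291 to 378395) at 58.8%. The contrast among these 4 without a ribosomal protein gene was that of DAP1 (chromosome XVI, 228314 to 228772), a heme-binding protein gene, at 14.8% and MEX67 (229039 to 230838), the messenger RNA export receptor gene, at 50.8%, with levels of 0.333 and 1.03 in the deletion strain and 2.25 and 2.03 in wild type.

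**Figure D3:**
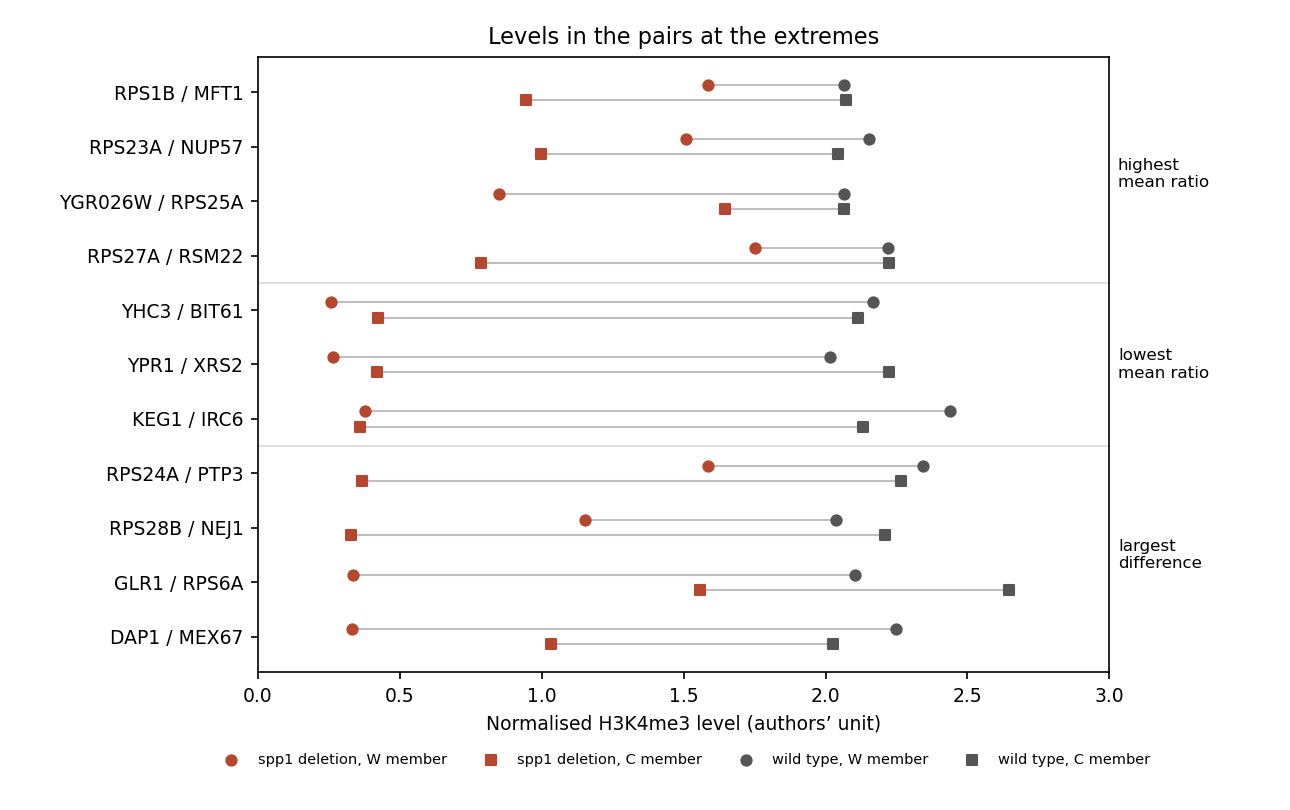
H3K4me3 level of both members of 11 convergent pairs in the spp1 deletion strain (red) and in wild type (grey), with circles for W members and squares for C members. The pairs were chosen by a wild-type level of at least 2.01 in both members and then by their ratios. The narrow range in wild type and the separation in the deletion strain therefore follow from the choice. In wild type all 22 genes lie between 2.02 and 2.65. In the deletion strain the pairs with the lowest mean ratio lie between 0.256 and 0.423 and those with the highest between 0.784 and 1.75.

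Ribosomal protein genes kept far more of the mark than the genes they face. Of 121 such genes measured outside the left arm of chromosome IV, 49 belonged to convergent pairs (40.5%, against 43.7% of all genes), in 48 pairs. Their median level was 62.3% of wild type, and 45 of the 49 kept 50% or more, where 5.41% of all genes did. Ribosomal protein genes in no convergent pair had a median of 59.1%, so the high ratios are not particular to convergent pairs. Each of 47 pairs joined such a gene to a partner of another kind. In the deletion strain the ribosomal protein genes of these pairs ran from 1.06 over a median of 1.42 to 1.79, and their partners from 0.170 over 0.522 to 1.34. In wild type the same genes ran from 1.83 over 2.28 to 2.74, and the partners from 0.431 over 2.06 to 2.69. The ribosomal protein genes thus lay above nearly all partners in the deletion strain, while both ranges overlapped widely in wild type.

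The partners of ribosomal protein genes had a median near that of all genes. Over the 47 pairs, the ribosomal protein genes ranged over 46.0% to 80.0% of their wild-type level, and the partners over 14.8% to 53.8% with a median of 25.8%. The partners' median on the log2 scale was -1.95, against -1.93 for all genes. NAB2 was the single partner that kept 50% or more, and 21 of the 47 lay below 25%. Within the pair, the ribosomal protein gene had the higher ratio for 48 of the 49 such genes, by a median log2 difference of 1.19. The exception was RPS14B, at 22.5%, whose partner is itself a ribosomal protein gene, RPS22A at 65.3%. Over the 47 pairs the Spearman correlation between both ratios was 0.061. Divergent and tandem neighbours of ribosomal protein genes had median log2 ratios of -1.81 (48 genes) and -1.95 (79 genes).

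**Figure D4:**
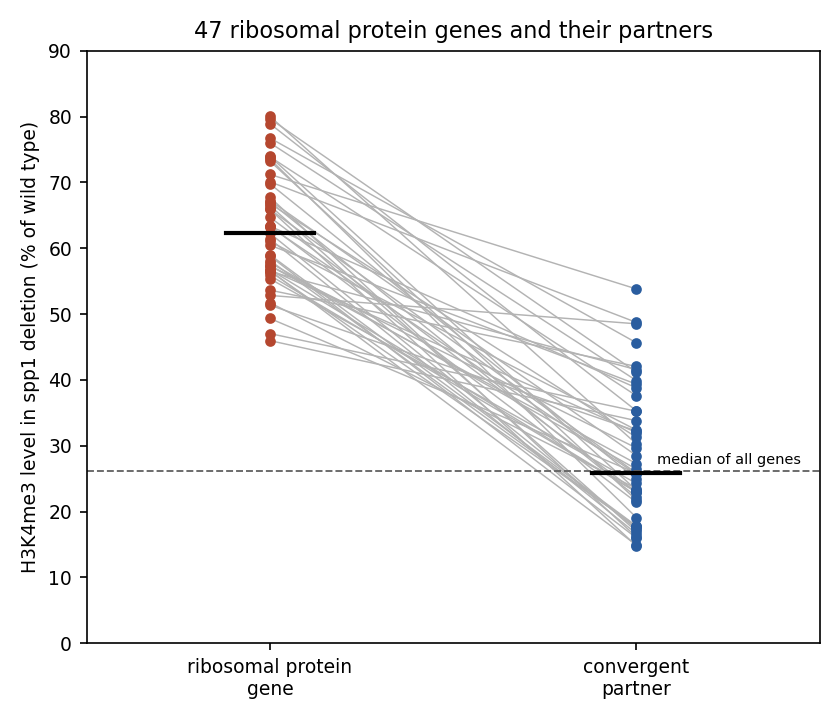
H3K4me3 level in the spp1 deletion strain as a percentage of wild type for 47 ribosomal protein genes and, joined by a line, the convergent partner of each that is not a ribosomal protein gene. Thick bars are medians, 62.3% and 25.8%, and the dashed line is the median of all genes outside chromosome IV left, 26.2%.

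The partners named here were picked from the 47 by hand, with their values known. REB1, which encodes a DNA-binding factor of many promoters, lay at 32.4% beside RPS11B at 61.0%. The homeobox repressor genes YOX1 and YHP1 lay at 14.8% and 17.8%, beside RPS18B at 65.9% and RPS18A at 59.0%. Both duplicates of RPS18 thus face a gene of the same repressor family across their 3′ ends. SWI3, a SWI/SNF subunit gene, lay at 42.0% beside RPL17B at 53.6%, and YNG1, which encodes a reader of H3K4me3 in the NuA3 acetyltransferase, at 25.8% beside RPL3 at 49.3%. Duplicated ribosomal protein genes can face unlike partners. RPS23A and RPS23B lay at 70.1% and 73.9% and their partners NUP57 and SPN1 at 48.7% and 37.6%, and RPS4A and RPS4B lay at 46.0% and 63.4% beside MGM101 at 33.8% and SMN1 at 21.4%. The sources used here do not say how reads shared by near-identical copies were counted.

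The proteasome showed the same arrangement, an observation made after its values were seen. All 15 pairs with a proteasome-list gene held exactly 1, and those genes kept a median of 45.6% and ran from 36.7% to 69.0%. Proteasome-list genes in no convergent pair had a median of 42.1%. Their partners had a median of 22.6%, with 9 of 15 below 25%, a class that held 44.9% of all genes. The proteasome gene had the higher ratio in 14 pairs and the higher level in the deletion strain in 14, but the higher level in wild type in 8. RPN11, which encodes the deubiquitinase of the lid, lay at 69.0% beside the splicing gene SAD1 at 20.3%. SCL1, an alpha subunit gene of the core particle, lay at 56.4% beside ERG4, of ergosterol synthesis, at 19.1%. The exception for the ratio was RPN12 at 44.4% beside HXK1 at 55.3%, and the level of HXK1, a hexokinase gene, was low in both strains (0.215 in the deletion strain and 0.388 in wild type). The exception for the level in the deletion strain was RPN13, at 0.793 beside the pyrimidine synthesis gene URA4 at 0.799.

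Other gene groups differed less from their partners. Of the ribosome biogenesis list 34 genes were in convergent pairs, at a median of 34.7% with partners at 24.7%. Their ratio was the higher one in 22 of 34 pairs, their level in the deletion strain in 25 and their level in wild type in 28. Of the mitochondrial ribosomal proteins 34 were members, at a median of 29.8% with partners at 29.3%, and theirs was the higher ratio in 18 of 34 pairs, the higher level in the deletion strain in 20 and in wild type in 21. Among COMPASS genes, SDC1 lay at 35.0% beside UGO1 at 37.3%, SHG1 at 31.7% beside POP4 at 29.9%, and BRE2 at 20.2% beside the splicing gene PML1 at 42.1%. Of the histone genes 6 were members, at a median of 30.2% with partners at 25.7%. HHT2 lay at 30.6% beside SIW14 at 32.6%, and HHF2 at 37.3% beside KTR5 at 18.4%. Of the glycolysis and fermentation list 8 genes were members, with a median of 31.7% and partners at 32.2%. TDH3 lay at 55.5% beside the histidine permease gene HIP1 at 35.3%, TPI1 at 29.7% beside VMS1 at 30.2%, and ENO1 at 33.7% beside the ubiquinone synthesis gene COQ6 at 12.6%. List genes in no convergent pair had medians of 40.0% in ribosome biogenesis and 31.5% in mitochondrial ribosomal proteins. Those of the histones and of glycolysis and fermentation had 27.5% and 33.5%.

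The pairs with the highest mean log2 wild-type level held members from 24.4% to 58.6% of wild type. UTP14, of the small-subunit processome, and the proteasome gene PRE8 had levels of 0.890 and 1.101 in the deletion strain and 3.01 and 2.58 in wild type, or 29.5% and 42.7%. PRS4, a nucleotide synthesis gene, lay at 36.8% and UBP13, a ubiquitin protease gene, at 24.4%. SLY1, of vesicle fusion, lay at 26.7% beside RVB1, an ATPase gene of chromatin remodellers, at 58.6%. Across members the Spearman correlation of the wild-type level with the log2 ratio was 0.26.

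Most poorly marked genes faced a better marked one, as genes picked for a low level would in any pairing. The widest gap in wild type was that of HSP12, a membrane stress protein gene, with levels of 0.155 in the deletion strain and 0.258 in wild type, beside IES1, an INO80 subunit gene, with 0.692 and 2.33. YMR206W had 0.182 and 0.253 beside the mitochondrial carboxylase gene HFA1 with 0.487 and 2.08, and the drug transporter gene PDR15 had 0.175 and 0.310 beside TRS120, of the TRAPP complex, with 0.588 and 2.28. The ratios of the poorly marked genes (59.9%, 71.8% and 56.4%) were higher than those of their partners, and they compare levels near the bottom of both libraries. Of 172 members below the 10th percentile of wild-type level, 1.08, the partners had a median wild-type level of 1.98, against 2.05 for all members. Among these partners 17.4% lay below that percentile themselves, against 8.16% of the partners of all members.

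Some poorly marked genes also faced each other. Both members lay below that percentile in 15 pairs (1.42%), against 0.648% of all pairings. Exactly 1 member did in 142, for which no share of all pairings was computed. The levels of these 30 genes ran from 0.105 to 0.334 in the deletion strain and from 0.285 to 1.04 in wild type, with a median ratio of 31.4%. The 3 pairs given here were picked out after their values were seen. FIT2 and FIT3, cell wall mannoproteins that hold siderophores, had 0.181 and 0.155 in the deletion strain and 0.595 and 0.301 in wild type. TIR4 and TIR2, cell wall mannoproteins of cells without oxygen, had 0.196 and 0.168 in the deletion strain and 0.624 and 0.470 in wild type. The silent mating-type gene HMRA1 and the phosphate compound transporter gene GIT1 had 0.334 and 0.195 in the deletion strain and 0.839 and 0.811 in wild type, with another annotated gene between them.

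How far apart the members lie went weakly with how much of the mark they kept. Lengths in the annotation are multiples of 3 for 96.3% of protein-coding genes, so they were taken as spans from start to stop codon, any intron included. The distance is that between coding 3′ ends. This distance had a median of 224.5 bases (quartiles 136 and 345.5), against gaps of 518 in divergent and 396.5 in tandem pairs. Members of the 119 pairs under 100 bases apart kept a median of 23.2%, those of 328 pairs at 100 to under 200 bases 25.6%, those of 378 pairs at 200 to under 400 bases 27.7% and those of 198 pairs at 400 bases or more 26.7%. Below 25% of wild type lay 58.8%, 47.9%, 40.9% and 41.2% of the members in that order, and at or above 50% lay 1.68%, 3.049%, 6.48% and 8.08%. Median levels in the deletion strain were 0.462, 0.517, 0.546 and 0.495, and in wild type 2.02, 2.08, 2.08 and 1.99. Across pairs the Spearman correlation between distance and the mean log2 ratio of the pair was 0.18, against 0.073 between distance and the difference within the pair. With distance, the mean log2 level of the pair had a correlation of 0.030 in the deletion strain and of -0.099 in wild type.

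Ribosomal protein genes move with this distance. Of the 48 pairs that hold one, 0 were under 100 bases apart and 5 (10.4%) under 200, whereas 126 (12.8%) and 449 (45.7%) of the 982 other pairs were. Both counts of other pairs include the 7 pairs whose coding sequences overlap, which the classes above leave out. Their median distance was 320 bases, against 218 bases in the others. Without these pairs the medians from the nearest to the farthest class were 23.2%, 25.5%, 27.0% and 26.1%, and the correlation was 0.15. Median length from start to stop codon rose over the same classes, at 1107, 1242, 1276 and 1387.5 bases. Across members, longer genes had lower ratios (Spearman -0.14). Another annotated gene lay between the members in 59 of the 198 pairs of the farthest class. Among pairs with none between, that class had a median of 27.6%.

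**Figure D5:**
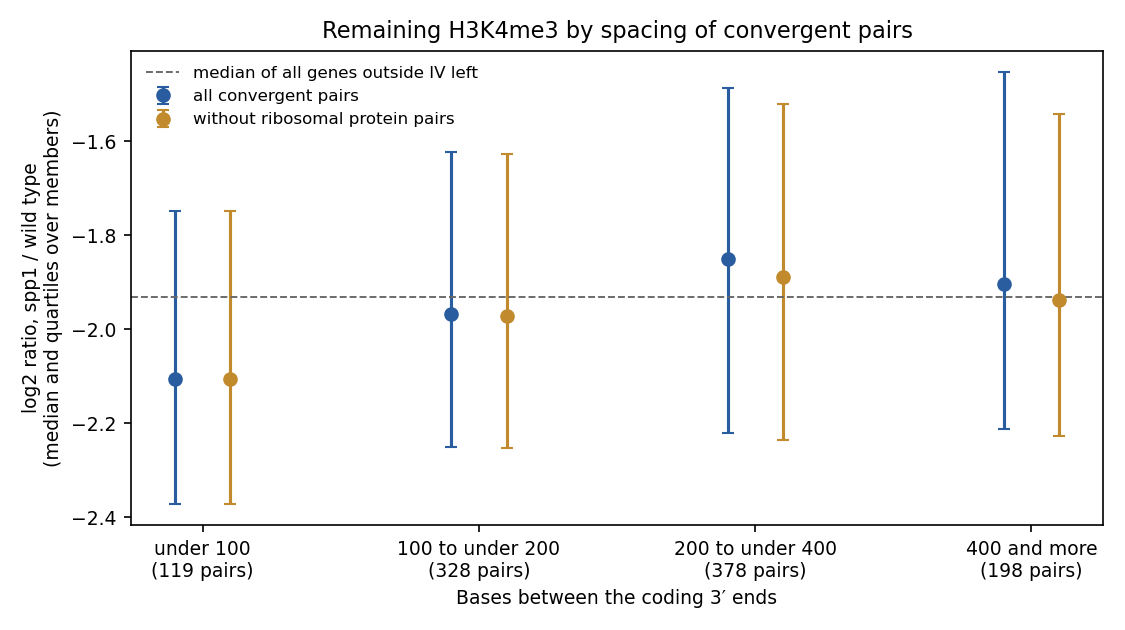
Median log2 ratio of deletion to wild type over the members of convergent pairs, with quartiles over genes as bars, by the number of bases between the coding 3′ ends, for all pairs and without pairs that hold a ribosomal protein gene. The medians of all pairs are -2.11, -1.97, -1.85 and -1.90 from the nearest to the farthest class, and the dashed line marks the median of all genes, -1.93.

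Among pairs that do not overlap, how alike the members were showed no steady trend with distance. From the nearest to the farthest class, members' log2 ratios had Spearman correlations of 0.040, -0.018, -0.019 and 0.12. For levels in the deletion strain the values were 0.18, 0.053, 0.079 and 0.14, and for wild-type levels 0.12, -0.0041, 0.11 and 0.036. In the farthest class, the 139 pairs with no annotated gene between had a ratio correlation of 0.16, against 0.11 in all divergent pairs. The divergent pairs were not filtered for distance or for genes between, so these values are not matched. In 7 further pairs the coding sequences overlap. YGR017W and YGR018C overlap by 316 bases, nearly the whole of YGR018C, and lay at 31.2% and 19.2% of wild type, with levels of 0.680 and 0.203 in the deletion strain and 2.18 and 1.06 in wild type. VPS38, of vacuolar sorting, and the phosphatase gene DCR2 overlap by 35 bases and lay at 20.2% and 21.1%. The kinetochore gene CTF19 and the microtubule protein gene IRC15 overlap by 27 bases, and had levels of 0.379 and 0.164 in the deletion strain and 1.92 and 0.399 in wild type. These pairs were the 3 with the longest overlaps, and they range from like to unlike members. The other 4 overlap by 4 to 6 bases, and their members' log2 ratios differed by 0.031 in SMD1 and PRP38, 0.078 in YML096W and RAD10, 0.25 in VPS75 and CWC25 and 0.27 in NKP2 and TAD3. Over the 7 overlapping pairs the median difference in log2 ratio was 0.25, against medians of 0.44 to 0.53 in the other classes. Their Spearman correlations were 0.071 for the log2 ratio, 0.57 for the level in the deletion strain and 0.43 for the level in wild type, over only 7 pairs.

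The neighbour on the other side of a member, the one upstream of its promoter, was looked at as well. Members with a divergent upstream neighbour (956) kept a median of 26.7%, those with a tandem one (810) 25.8%, and the 342 whose upstream neighbour by number was not among the genes used 25.1%. Their shares below 25% were 42.7%, 47.0% and 49.1%. In a pair, the shorter member had the higher ratio in 551 pairs and the longer one in 478.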

How the data were processed

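The authors deposited 1 table of normalised H3K4me3 signal per gene, with a column for the wild-type and a column for the spp1 H3K4me3 library, per the file headers. The tools were Bowtie2, SAMtools and bedtools and the builds sacCer3 and ASM294v2, per the submitters' processing notes. The sources used here give no versions, no read depth and no account of how reads became levels, so no counting interval is given. Of the 5219 genes, 5038 had both levels. Ratios are log2 of spp1 over wild type, with no pseudocount and no filter. Distances and symbols come from the RefSeq annotation of assembly R64 (1-based), the budding yeast reference genome of the S288C strain, and 25 members were not annotated there. Promoter and genome sequences were not used here. Spearman correlations, medians and exhaustive pairings were computed with Python 3.11.15, pandas 2.3.3 and numpy 2.4.6. On simulated pairs with known correlation, the Pearson correlation and the median were checked against the true values. The Spearman correlation was computed there without such a check, and the exhaustive pairings were not tried on simulated pairs. No test between strains was possible. Pairs were named by rule: those with the highest and lowest mean ratio and the widest ratio difference among well-marked pairs, the highest level, the widest level difference and the largest overlap, and pairs with a ribosomal protein, COMPASS, histone or glycolysis gene. A single pair named by this rule is not reported here. The members, lists and tests were chosen with earlier results of these data known. Alternatives covered the left arm of chromosome IV, floors on wild-type level, a pseudocount, background subtraction, identical levels, annotated neighbours, overlaps, ribosomal protein pairs, library totals and the form of the correlation.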

Additional observations from a re-analysis of the deposited data

How the results depend on the processing

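Of 139 alternative values for 13 results, 118 stayed within the 95% interval over genes or pairs of the value reported, or within 1.5 times a count. That interval treats genes or pairs as independent, which they are not, so the tally is only a description. Some of the 118 could not move. A pseudocount keeps the rank order of levels, and dividing each library by its own sum keeps differences between medians of log2 ratios. The within-pair correlation of the log2 ratio lay between -0.0056 and 0.053 in convergent, 0.089 and 0.14 in divergent and 0.062 and 0.11 in tandem pairs. A floor at the median wild-type level left 642 members in 321 pairs. Their median log2 ratio was -1.76, 0.032 above that of all genes over the same floor, a change of sign from -0.0041. The sign also turned with a floor at the 10th percentile (0.012), after background subtraction (0.013) and with annotated neighbours alone (0.00079). With the floor at the median wild-type level, the correlation of spp1 levels was 0.010 and the median difference in log2 ratio within a pair 0.41. Over that same floor 197 of the 642 members lay below 25% and 609 below 50% of wild type, with both members below 25% in 31 of the 321 pairs. Without the floor there were 2108 members in 1054 pairs, so these counts fall with the smaller set alone. The share of all genes below these limits was not computed for any alternative. Adding a pseudocount of 0.201 gave a median of -1.58, a within-pair difference of 0.33, 167 members below 25% and 8 pairs with both. After subtracting the 1st percentile of each library, the median was -2.17, the within-pair difference 0.78 and 366 of 1024 pairs had both members below 25%. The mean within-pair difference was 0.57. With each library divided by its own sum, which removes the authors' scaling between strains, the median was -0.14, 47 members lay below 50%, 0 below 25% and 0 pairs had both below 25%. Members 200 to under 400 bases apart lay 0.26 above those under 100 bases apart on the log2 scale. That difference was 0.12 over the floor at the median wild-type level and 0.34 after background subtraction, settings chosen for it after seeing the data. It was 0.22 without ribosomal protein pairs. For the partners of ribosomal protein genes, the median minus that of all genes ran from -0.12 to 0.14 over the alternatives. Where values moved, the cause was not tested. No paired analysis was possible because each strain has 1 library.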
